A study of Mus musculus with 242 samples.

Results

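Sulfotransferase genes were followed in the livers of female B6C3F1 mice exposed to chemicals for 13 weeks. The 8 genes were Sult1e1, Sult2a2, Sult3a1, Sult5a1, Sult1a1, Sult1b1, Sult1c2 and Sult1d1, out of 18193 genes measured. Each gene was read from the probe set that maps to it and, where there was more than 1, from the brightest on average across all 242 Mouse430_2 arrays. Sult1d1 was the member with 2 probe sets. The array measured 13 genes of the cytosolic sulfotransferase family, and the 5 outside the set (Sult1c1, Sult2a8, Sult2b1, Sult4a1 and Sult6b1) were counted alongside.

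Cytosolic sulfotransferases move a sulfate group from the donor PAPS onto a hydroxyl or amine of a hormone, bile acid, neurotransmitter or foreign compound. The product is more soluble in water and is in most cases inactive and excreted, although sulfation turns some compounds into reactive ones. In rodent liver the family includes an estrogen form, hydroxysteroid and bile acid forms and phenol forms, and several members differ in level between the sexes and answer to nuclear receptors such as CAR, PXR and FXR.

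All mice were B6C3F1 females, a cross of inbred strains, 5 weeks old at the start and 18 weeks old at the end; the labels name no engineered allele. Each array held RNA of 1 mouse from the minced right, caudate and median lobes, so that fewer cells of a type and less RNA per cell cannot be told apart. There were 46 treated groups and 14 control sets, with 3 to 5 mice each. Mice were dosed in feed with Malathion (14800 ppm), Diazinon (200 ppm), 4-Nitroanthranilic acid (10000 ppm), 2,2-Bis(bromomethyl)-1,3-propanediol (1250 ppm), 1-Amino-2,4-dibromoanthraquinone (20000 ppm), Tris(2,3-dibromopropyl)phosphate (1000 ppm), Pentachloronitrobenzene (8187 ppm), 1,5-Naphthalenediamine or N-(1-naphthyl)ethylenediamine dihydrochloride (both 2000 ppm). By gavage in corn oil they received 2,3-Benzofuran (240 mg/kg), Coumarin (200 mg/kg), 1,2-Dibromoethane (62 mg/kg), Benzene (100 mg/kg), Iodoform (93 mg/kg), Trichlorofluoromethane (3925 mg/kg), 1,4-Dichlorobenzene (100, 300, 400, 500 and 600 mg/kg) or 1,2,3-Trichloropropane (2, 6, 20, 40 and 60 mg/kg). By gavage in water they received N-Methylolacrylamide (50 mg/kg) or 2-Chloromethylpyridine hydrochloride (250 mg/kg). By inhalation they received Methylene Chloride (100, 500, 2000, 3000 and 4000 ppm), Naphthalene (0.5, 3, 10, 20 and 30 ppm), Propylene glycol mono-t-butyl ether (25, 75, 300, 800 and 1200 ppm), Ethylene Oxide (100 ppm), Tetrafluoroethylene (1250 ppm), Tetrafluororethane (50000 ppm) or Vanadium Pentoxide (2 mg/m3). Doses are those of the sample characteristics. The titles of the Malathion samples carry 16000 in place of 14800, and which figure is right was not settled here; all titles of 2,3-Benzofuran, Pentachloronitrobenzene and their controls carry 2000. Control mice received the vehicle alone (chow, corn oil, water or air) and are named by the set codes in the sample titles.

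The arrays fell into 4 runs by the run codes in the labels, A (54 arrays), B (36), C (18) and D (134), and each treated group was compared with a control set of its own run and vehicle. Values are probe set signals on a linear scale with a common trimmed mean of 500, and array medians lay between 69.35 and 136.68. Run A had the poorest RNA by integrity number (4.7 to 7.8), against 7.1 or more in every array of the other runs with a known number. Hepatocyte markers were measured at high summed signal in every group, and the liver label was borne out by them (248551 to 430494 in Malathion mice and 315733 to 439898 in their controls, summed over 8 genes). The number of arrays limits the precision of every value.

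A difference is given as log2 of the treated over the control signal, each with 17.3 added, with the standard error of limma after ±. Calls required 2 things: an adjusted p below 0.05 (Benjamini-Hochberg, across every gene on the array) and a change of 1.5-fold or more. Of 368 tests of a member in a treated group, 22 were called, 4 higher and 18 lower, and 88 had an unadjusted p under 0.05. The share of all genes with an unadjusted p under 0.05 was not counted for the treated groups, so such counts have no background here. Over all genes and treated groups together, 0.751% of tests were called. The calls lay in 13 of the 46 groups and came from 9 chemicals; in 33 groups no member was called. Sult2a2 was called in 6 groups (2 higher, 4 lower), Sult3a1 and Sult5a1 in 5 each (all lower), Sult1e1 in 2 (both higher), and Sult1c2 and Sult1d1 in 2 each (all lower). With no other group in the fit than the 2 compared, 10 of the 22 calls were kept: the 4 with Malathion, Sult3a1 at 4 doses and Sult5a1 at 4000 ppm of Methylene Chloride, and Sult1c2 with 2,3-Benzofuran. Sult1a1 and Sult1b1 were called in no group by limma, with 8 and 11 of 46 tests at an unadjusted p under 0.05.

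**Figure D1:**
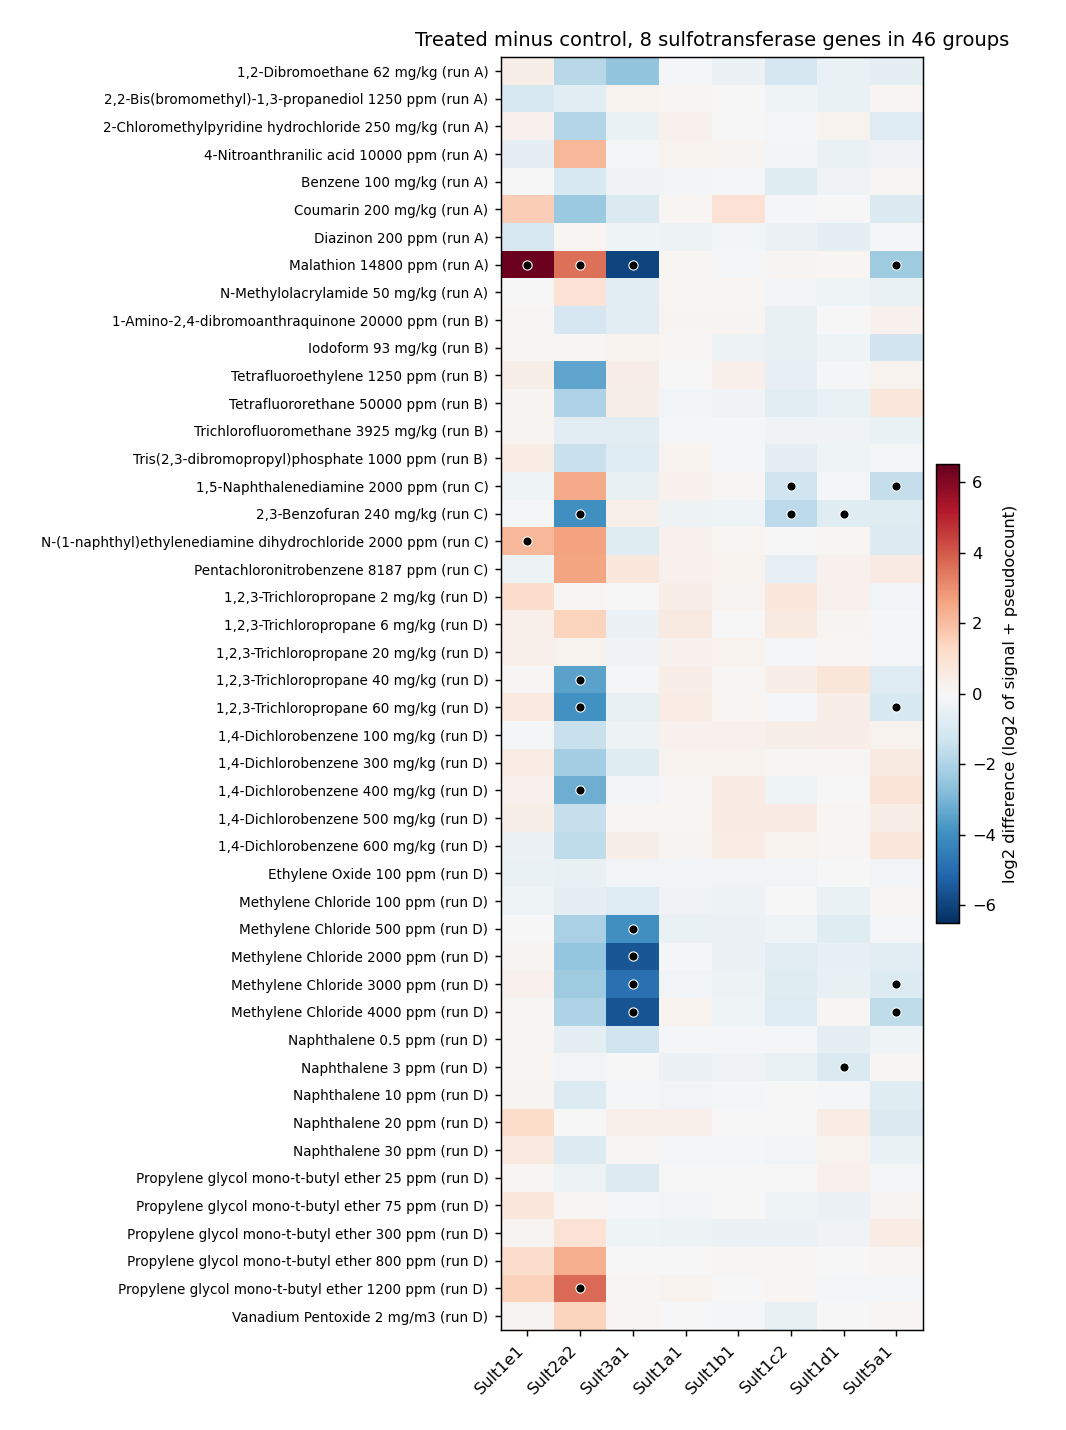
Colour shows the log2 difference between treated and control arrays (red higher, blue lower) for 8 sulfotransferase genes (columns) in 46 treated groups (rows, by run), and black dots mark the 22 calls. Malathion holds the deepest colours in both directions, and the Methylene Chloride rows are deep blue for Sult3a1 from 500 ppm.

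Sult1e1 encodes estrogen sulfotransferase, which inactivates estradiol and estrone. Its signal was low in the livers of control mice, between 2.86 and 101 with a median of 8.27 over 59 control arrays. Because these signals lie near the added 17.3, the differences on this scale understate the ratio of the signals. Its promoter is shown because no other member rose as far in any comparison here. The window (RefSeq, GRCm38.p6, chr5:87591562-87591861, minus strand) runs from 250 bases before to 50 bases after the start of the gene, and capitals mark the 1 match found among 6 motifs, the nuclear receptor element AGGTCA read on the other strand.
Sult1e1: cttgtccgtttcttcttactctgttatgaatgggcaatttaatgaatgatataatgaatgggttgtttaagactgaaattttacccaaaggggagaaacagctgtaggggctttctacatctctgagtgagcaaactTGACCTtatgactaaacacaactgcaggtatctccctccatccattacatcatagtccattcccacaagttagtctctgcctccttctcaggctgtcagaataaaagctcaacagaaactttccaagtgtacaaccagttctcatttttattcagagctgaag
The motifs searched on both strands were AGGTCA (a nuclear receptor element), TTCNNNGAA (a STAT element), TGACNNNGC (the core of the antioxidant response element), TATAAA (the TATA box), CCAAT (the CCAAT box) and GTTAAT (part of an HNF1 site). AGGTCA was found in 16.3% of 32851 promoter windows of 300 bases, TTCNNNGAA in 8.3%, TGACNNNGC in 12.4%, TATAAA in 13.6%, CCAAT in 37.4% and GTTAAT in 7.1%. Such a match describes the letters of the window and is no evidence of binding.

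Sult1e1 rose in Malathion mice. The 5 treated arrays read 5679, 6591, 2442, 3248 and 8070, and the 4 arrays of the chow control set FCO2 read 10.7, 101, 69.35 and 10.2. Every treated array lay more than an order of magnitude above every control array. The log2 difference was 6.38 ± 0.56 (limma, adjusted p = 4.7e-11), in a comparison in which 4.37% of all genes and 4 of the 8 members (Sult1e1, Sult2a2, Sult3a1 and Sult5a1) were called. Diazinon, an organophosphate insecticide like malathion, was given at a much lower concentration and is set beside it without a comparison. Its arrays read 7.38, 3.34, 11.7 and 7.60 for Sult1e1, against the same control set, and the log2 difference was -1.03 ± 0.59 (adjusted p = 1).

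Sult1e1 also rose in mice fed N-(1-naphthyl)ethylenediamine dihydrochloride. The treated arrays read 144, 155 and 148, and the RodentChow controls read 10.4, 17.7 and 37.4, so that the groups were apart. The log2 difference was 2.15 ± 0.28 (limma, adjusted p = 0.011), where 0.693% of genes were called. These treated arrays had lower RNA integrity numbers than their controls (7.7 to 8.1 against 8.8 to 9.1) and a higher Gapdh 3' to 5' log ratio. With that ratio as a covariate the Sult1e1 difference was 1.59 and its adjusted p 0.28, and with the values as deposited the adjusted p was 0.057.

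In other groups the Sult1e1 signal was high in single mice and was not called. In Coumarin mice 1 array read 625.3 while the others read 32.4, 33.35 and 11.9, and the CCO2 controls read 23.5, 3.17, 4.77 and 11.0 (difference 1.62 ± 0.58, limma adjusted p = 0.34). At 1200 ppm Propylene glycol mono-t-butyl ether the arrays read 11.4, 243, 74.6 and 12.5, against 3.50 to 14.1 in the air controls ACO3 (difference 1.52 ± 0.48, adjusted p = 0.20). The trend of Sult1e1 over the 5 doses of that ether was 1.47 ± 0.41 (adjusted p = 0.079). In both groups 1 or 2 mice stood apart from the rest of their own group as well as from the controls.

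**Figure D2:**
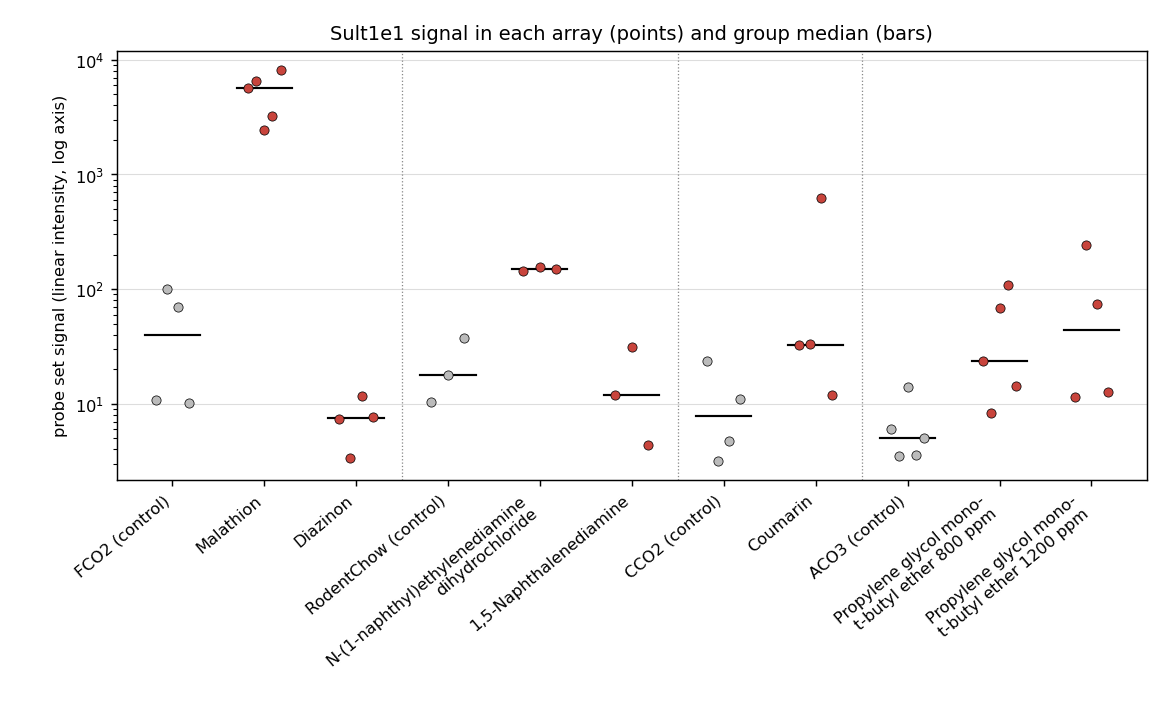
Sult1e1 probe set signal (linear intensity on a log axis) in each array, with red points for treated mice, grey points for control mice and bars at the group medians. The Malathion arrays lie between 2442 and 8070, the N-(1-naphthyl)ethylenediamine dihydrochloride arrays between 144 and 155, and 1 Coumarin array at 625.3 lies above the rest of its group.

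Sult2a2 belongs to the hydroxysteroid and bile acid sulfotransferases, which act on dehydroepiandrosterone and bile acids. It is one of a cluster of near-identical genes on chromosome 7, and Sult2a1 to Sult2a7 were not told apart here, so its signal may include its copies. No promoter of it was in the table used. Among untreated mice it varied more than nearly any other gene. Its signal ran from 81.5 to 17421 over 59 control arrays, and its standard deviation within control sets was 1.19 (log2), at the 99.9th percentile of all genes, whose median was 0.44.

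Sult2a2 rose in Malathion mice and at the top dose of Propylene glycol mono-t-butyl ether. The Malathion arrays read 35335, 35802, 26153, 24766 and 34737, against 2175, 2351, 884 and 4180 in FCO2. The groups did not overlap, and the log2 difference was 3.56 ± 0.70 (limma, adjusted p = 6.6e-04). At 1200 ppm of the ether the Sult2a2 arrays read 3424, 6323, 13389 and 2378, all above the air controls ACO3 at 457, 164, 623, 511 and 313. That difference was 3.70 ± 0.80 (adjusted p = 0.011), where 0.165% of genes were called. At 800 ppm the arrays read 2607, 863, 10419, 6751 and 181, 1 of them within the control range, and the difference of 2.34 ± 0.76 was not called (adjusted p = 0.39). At 25, 75 and 300 ppm the differences were -0.35, 0.08 and 0.92. The trend over doses was 3.92 ± 0.68 (adjusted p = 1.1e-04), where 0.253% of genes were called. RNA integrity numbers at 1200 ppm (9.1 to 9.2 in the 3 known) lay above those of the controls (8.7 to 8.8), and their part in the result was not tested. The call at 1200 ppm was lost without treated replicate 3 (3.24, adjusted p = 0.12) or control replicate 2 (3.42, adjusted p = 0.059).

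Sult2a2 fell at the 2 highest doses of 1,2,3-Trichloropropane. The corn oil controls CCO6 read 3336, 5136, 6037, 1377 and 1202. At 40 mg/kg the arrays read 366, 191, 403 and 111, and at 60 mg/kg 233, 58.6, 386 and 129, so that both groups lay below every control. The differences were -3.46 ± 0.80 (limma, adjusted p = 0.0091, with 1.34% of genes called) and -3.95 ± 0.80 (adjusted p = 0.0022, with 0.401% called). Below these doses the Sult2a2 differences were 0.08 at 2 mg/kg, 1.44 at 6 mg/kg and 0.22 at 20 mg/kg, none of them called. The trend over all 5 doses was -4.51 ± 0.69 (adjusted p = 3.3e-06), where 0.577% of genes were called.

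Other falls of Sult2a2 rested on fewer or more scattered arrays. In 2,3-Benzofuran mice the arrays read 1349, 45.3 and 932, below the CornOil controls at 2816, 12326 and 9238 (difference -3.99 ± 1.02, limma adjusted p = 0.045, with 3.28% of genes called). The call was lost without control replicate 2 or 3 or treated replicate 2 or 3, with differences of -4.55 to -2.59 and adjusted p-values of 0.060 to 0.14, and with the lower pseudocount (adjusted p = 0.052). At 400 mg/kg 1,4-Dichlorobenzene the arrays read 3196, 451, 888 and 202, against 3003, 7329, 8936, 11023 and 5685 in CCO5, and 1 treated array lay within the control range. That difference was -3.16 ± 0.80 (adjusted p = 0.030, with 0.462% of genes called). It was lost without control replicate 2, 3 or 4 or treated replicate 2 or 4, with differences of -3.12 to -2.57 and adjusted p-values of 0.064 to 0.26. It was also lost with the values as deposited (adjusted p = 0.087) and with pooled control sets (-2.54, adjusted p = 0.064). The Gapdh 3' to 5' log ratio lay below the controls at 400 mg/kg (-0.576 to -0.489 against -0.406 to -0.121) and likewise at 100, 300 and 500 mg/kg; with it as a covariate the 400 mg/kg difference was -4.11 (adjusted p = 0.0077). Sult2a2 was lower than in CCO5 at every dose of 1,4-Dichlorobenzene (-1.46, -2.19, -3.16, -1.52 and -1.65 from 100 to 600 mg/kg). The trend of -1.34 ± 0.69 was not called (limma, adjusted p = 0.38). All doses share the CCO5 arrays, so these differences are not independent. The mean log2 signal was 12.69 in CCO5 and 11.46 in CCO6, the other corn oil set of run D. From 100 to 600 mg/kg it was 11.23, 10.49, 9.53, 11.17 and 11.04. At 300 mg/kg the arrays (621 to 2455) were all below the controls, with an adjusted p of 0.11, where 2% of genes were called.

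Over the doses of Methylene Chloride the Sult2a2 trend was -2.21 ± 0.69 (limma, adjusted p = 0.029), where 3.5% of genes were called, and no single dose was called. The air controls ACO4 read 414, 81.5, 188, 642 and 944. Single doses gave differences of -0.60, -2.10, -2.49, -2.32 and -1.99 (± 0.80 each), with adjusted p-values of 0.070 to 0.88. The trend was lost with the values as deposited, a pseudocount 4 times higher, doses on a linear scale (-1.67) and the dosed mice without controls (-1.20), and without any 1 of 7 arrays: control replicates 4 and 5, 100 ppm replicate 3, 3000 ppm replicates 1 and 4, and 4000 ppm replicates 1 and 4. Without 1 of these the Sult2a2 trend was -2.22 to -1.89 and its adjusted p 0.052 to 0.11.

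In other groups Sult2a2 was high or low against the controls and did not pass the test. Tetrafluoroethylene arrays read 80.9 to 1667, overlapping the air controls ACO1 at 474 to 17421 (difference -3.44 ± 1.11, limma adjusted p = 0.20). Coumarin arrays read 36.4, 103, 104 and 70.8, below the CCO2 controls at 2603, 299, 165 and 360 (difference -2.42 ± 0.72, limma adjusted p = 0.17, where 0.357% of genes were called). Arrays of 2-Chloromethylpyridine hydrochloride mice read 714, 387, 168 and 332, below the water controls WCO1 at 797, 3314, 821 and 1526 (-1.88 ± 0.72, adjusted p = 0.96, with 0.011% of genes called). Arrays of 4-Nitroanthranilic acid mice read 12729, 10824, 5640 and 9942, above FCO2 (2.16 ± 0.72, adjusted p = 0.43, with 0.11% of genes called). The 3 feed groups of run C share the RodentChow controls (7107, 1020 and 1745). Their ranges were 8996 to 26994 for N-(1-naphthyl)ethylenediamine dihydrochloride, 6257 to 18808 for 1,5-Naphthalenediamine and 10887 to 18648 for Pentachloronitrobenzene, where 0.445% of genes were called. The differences were 2.63, 2.45 and 2.58 (± 1.02 each), with adjusted p-values of 0.21, 0.19 and 0.34. The 1,5-Naphthalenediamine range overlapped that of the controls, and the other two lay above it.

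Sult2a2 also differed in run D between untreated mice given corn oil and those kept in air. The contrast was chosen after the values were seen. In run D the 10 corn oil controls read 1202 to 11023 and the 15 air controls 81.5 to 1038, without overlap. The log2 difference was 3.58 ± 0.49 (limma, adjusted p = 7.3e-08), a 12.0-fold higher signal by gavage in corn oil, where 0.83% of genes were called. Its error comes from mice within sets and holds no spread between sets of the same vehicle. The corn oil set CCO6 differed from CCO5 by -1.23 ± 0.76. Vehicle, route and control set cannot be told apart. In run B the groups overlapped and the medians had the other order. There the air controls ACO1 read 474 to 17421 (median 3286) and the corn oil controls CCO4 676 to 1263.5 (median 1155), a difference that was not tested. Of the other members none was called in the run D contrast. Sult3a1 had the largest of their differences (0.80 ± 0.28, limma adjusted p = 0.11). Among 12 female-biased liver genes outside the family, 4 were higher and none lower, with a list median of 0.32 against 0.04 for all genes. They were Cyp3a16 (2.84), Hao2 (1.45), Acot3 (1.16) and Cyp3a44 (0.78). Csad, which makes the taurine precursor, was also higher (0.89, adjusted p = 0.011). Between control sets of the same labelled vehicle and run, limma called 0 of 40 tests of a member, with 4 at an unadjusted p under 0.05. In 8 of them the water set WCO1 was set against CCO3, which is labelled as distilled water but carries the title code of the corn oil sets. Without CCO3, 0 of 32 were called and 2 had an unadjusted p under 0.05; the 2 with CCO3 were Sult1b1 (0.70 higher in WCO1, limma adjusted p = 0.77) and Sult5a1 (0.82 higher, adjusted p = 0.78).

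**Figure D3:**
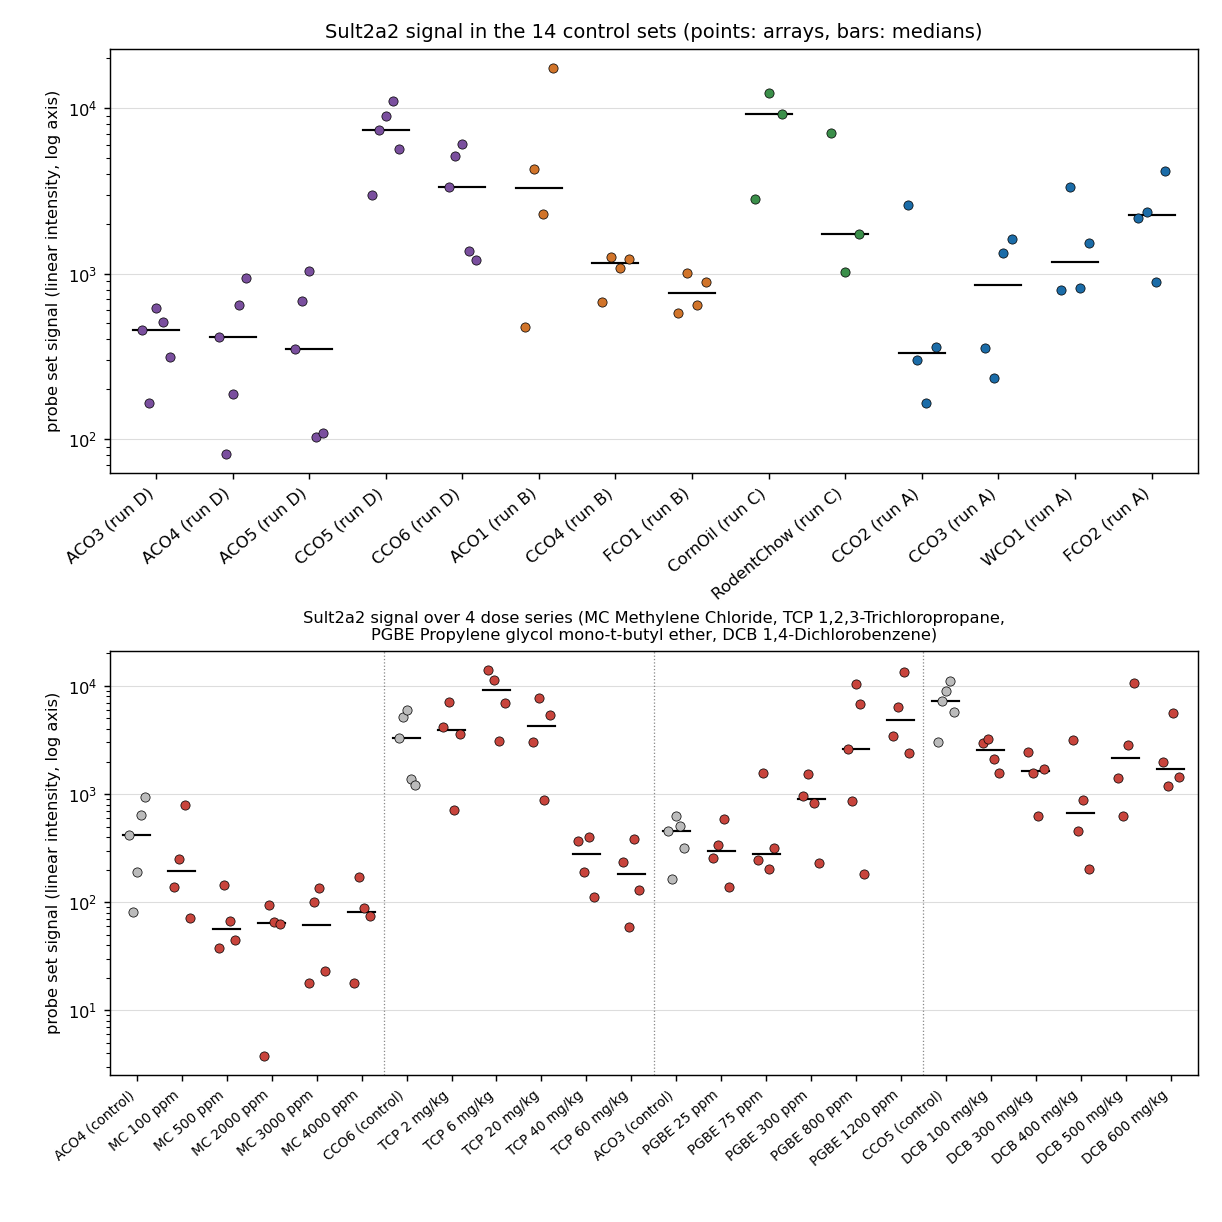
Sult2a2 probe set signal (linear intensity on a log axis) in each array, with bars at group medians, for the 14 control sets coloured by run (top) and for 4 dose series with their controls in grey (bottom). In run D the corn oil sets CCO5 and CCO6 (1202 to 11023) lie above the air sets ACO3, ACO4 and ACO5 (81.5 to 1038); 1,2,3-Trichloropropane arrays drop at 40 and 60 mg/kg and Propylene glycol mono-t-butyl ether arrays climb at 800 and 1200 ppm.

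Sult3a1 encodes a sulfotransferase that acts on amines and is more abundant in the livers of female mice. Its signal in control mice ran from 1745 to 23103 with a median of 13892. Sult5a1 is a family member whose substrates are less well known, with control signals of 484 to 4640. A promoter window of each is shown because both genes fell with Malathion and over the doses of Methylene Chloride. Both windows lie inside the bounds of the gene, at a listed start within it and not at its outer end. The bounds are chr10:33851020-33879475 for Sult3a1 and chr8:123142843-123158914 for Sult5a1. In the Sult3a1 window (RefSeq, GRCm38.p6, chr10:33857472-33857771, plus strand) capitals mark the 1 match among the 6 motifs, a STAT element TTCNNNGAA, and the Sult5a1 window (chr8:123158231-123158530, minus strand) held none of them.
Sult3a1: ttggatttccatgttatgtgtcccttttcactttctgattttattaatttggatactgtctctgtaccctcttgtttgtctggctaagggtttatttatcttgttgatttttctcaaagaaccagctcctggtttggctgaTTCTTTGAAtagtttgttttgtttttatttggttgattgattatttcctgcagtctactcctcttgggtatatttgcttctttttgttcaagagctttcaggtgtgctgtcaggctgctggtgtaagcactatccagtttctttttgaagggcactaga
Sult5a1: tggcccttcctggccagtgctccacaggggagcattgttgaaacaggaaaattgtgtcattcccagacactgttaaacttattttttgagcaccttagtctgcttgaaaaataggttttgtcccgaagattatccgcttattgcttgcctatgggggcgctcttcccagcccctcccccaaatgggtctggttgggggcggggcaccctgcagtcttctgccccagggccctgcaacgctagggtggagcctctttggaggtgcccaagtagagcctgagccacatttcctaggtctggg
A window without a match says only that these letters were absent from it.

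Sult3a1 fell in Malathion mice and at 4 of the 5 concentrations of Methylene Chloride. Malathion arrays read 893, 193, 130, 201 and 74.3, and FCO2 arrays read 11347, 17120, 13514 and 18111. All treated arrays lay below all controls, and the log2 difference was -5.95 ± 0.70 (limma, adjusted p = 6.5e-08). In Diazinon mice the Sult3a1 signal was 9778 to 17442, with a difference of -0.30 ± 0.73. Malathion arrays had lower RNA integrity numbers than their controls (4.7 to 6.5 in the 4 known, against 6.7 to 7.2). Without the 2 arrays under 5, the calls of Sult3a1 (-5.59), Sult1e1 (6.39), Sult2a2 (3.85) and Sult5a1 (-2.36) were kept.

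For Methylene Chloride, an inhaled solvent that is oxidised by cytochrome P450 and conjugated by glutathione transferases, the air controls ACO4 read 9054, 11086, 7992, 19640 and 11689 for Sult3a1. At 100 ppm the arrays read 5490, 6042, 8073 and 6106, with 1 array inside the control range (difference -0.83 ± 0.46, limma adjusted p = 0.61). At 500 ppm they read 472, 1066, 395 and 1160, all below the controls, for a difference of -3.99 ± 0.46 (adjusted p = 1.6e-09), where 0.726% of genes were called. The step from 100 to 500 ppm was therefore the wide one, and the higher doses added less to it. At 2000 ppm the arrays read 257, 728, 107 and 112 (-5.56, 0.857% of genes called), at 3000 ppm 228, 559, 336 and 448 (-4.86, 3.05% called), and at 4000 ppm 133, 834, 336 and 47.2 (-5.60, 2.92% called). These 3 groups overlapped each other. The adjusted p at 4000 ppm was 1.4e-17, and the trend over doses was -5.96 ± 0.40 (adjusted p = 1.8e-23). All 5 Sult3a1 calls were kept without each array in turn.

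Sult5a1 fell later in the same dose series. ACO4 arrays read 2828, 2872, 4640, 2714 and 2559. At 100 and 500 ppm Sult5a1 differed by 0.07 and -0.11. At 2000 ppm the arrays read 1652, 2820, 1604 and 1750, with 1 inside the control range, and the difference of -0.67 ± 0.24 was not called (limma, adjusted p = 0.16). At 3000 ppm they read 1739, 1315, 1799 and 1850 (-0.87 ± 0.24, adjusted p = 0.019), and at 4000 ppm 1024, 913, 897 and 1022 (-1.64 ± 0.24, adjusted p = 4.2e-07), all below the controls. The 3000 ppm call was lost without control replicate 3 (-0.72, adjusted p = 0.067) or treated replicate 2 (-0.76, adjusted p = 0.064), and with the values as deposited (adjusted p = 0.056). The trend was -1.66 ± 0.21 (adjusted p = 1.4e-09). The doses share their controls, so these values are not independent of each other.

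**Figure D4:**
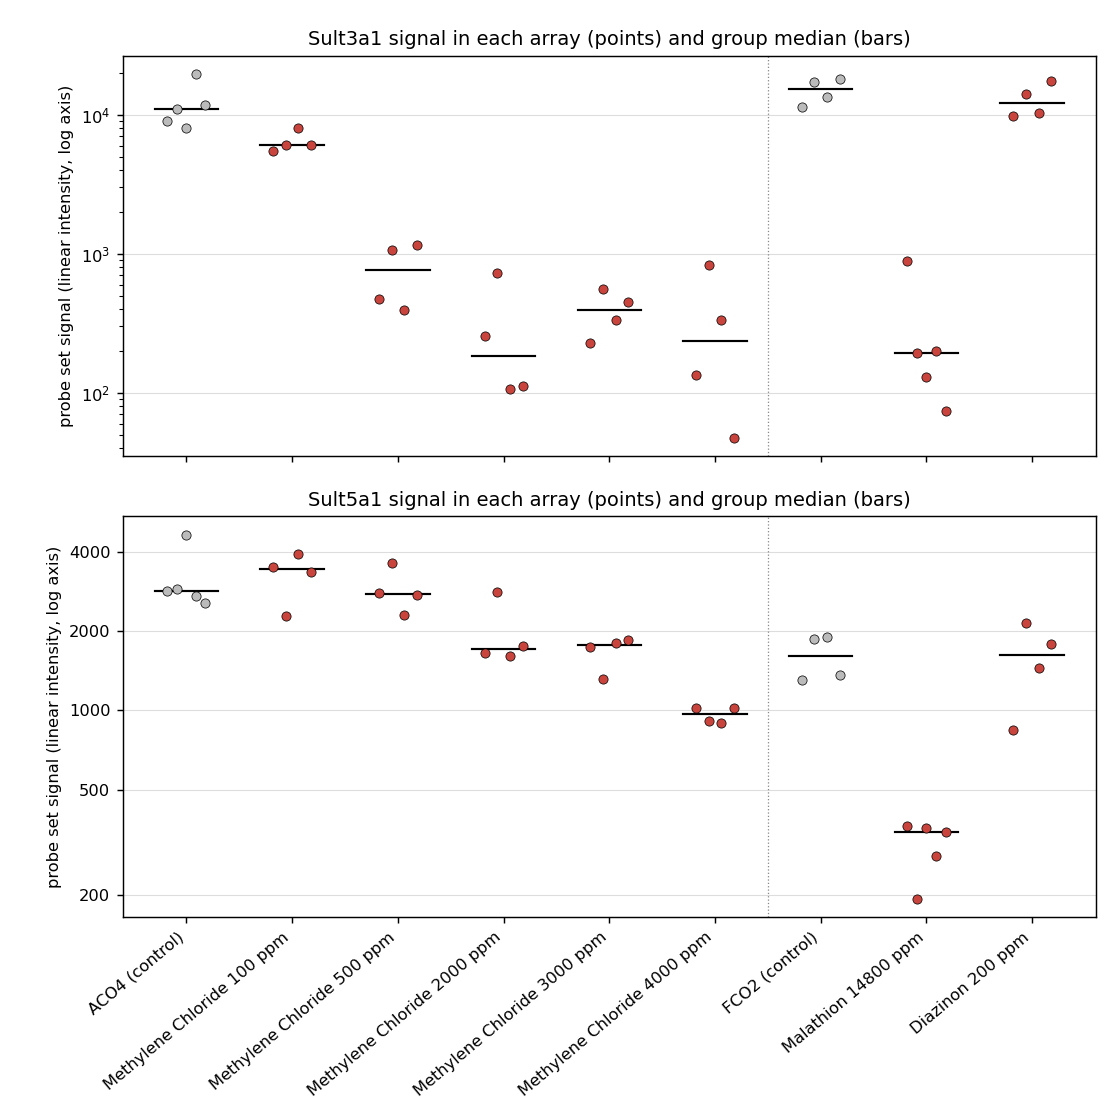
Probe set signal (linear intensity on a log axis) of Sult3a1 (top) and Sult5a1 (bottom) in each array, with controls in grey, treated mice in red and bars at group medians. Sult3a1 drops between 100 ppm (5490 to 8073) and 500 ppm (395 to 1160) of Methylene Chloride, while Sult5a1 is lowest at 4000 ppm (897 to 1024); both are low with Malathion and overlap the FCO2 controls with Diazinon.

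Sult5a1 fell in 3 other groups. In Malathion mice it read 364, 193, 358, 280 and 344, against 1299, 1862, 1888 and 1362 in FCO2, without overlap (-2.33 ± 0.36, limma adjusted p = 1.9e-05). In 1,5-Naphthalenediamine mice it read 462, 277 and 300, below the RodentChow controls at 1145, 1161 and 840 (-1.57 ± 0.31, adjusted p = 0.016, with 3.4% of genes called). That call was lost without control replicate 2 or treated replicate 2 or 3 (differences of -1.49 to -1.44, adjusted p-values of 0.055 to 0.065). Treated replicate 2 is 1 of the 2 arrays that were rescaled. At 60 mg/kg 1,2,3-Trichloropropane it read 1260, 1204, 1284 and 1275, a narrow range below CCO6 at 1943, 1908, 2694, 3336 and 2940 (-0.99 ± 0.24, adjusted p = 0.028). That call was lost without control replicate 3, 4 or 5 or any 1 treated array, with differences of -0.996 to -0.882 and adjusted p-values of 0.064 to 0.13, and with the values as deposited (adjusted p = 0.095) or pooled control sets (-0.80, adjusted p = 0.061). At 40 mg/kg the difference was -0.82 (adjusted p = 0.051), and the trend was -0.97 ± 0.21 (adjusted p = 0.0035).

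Groups in which these genes moved without passing the test were of both directions. Iodoform arrays read 352, 524, 387 and 545 for Sult5a1, below CCO4 at 1102, 1393, 1119 and 763 (-1.24 ± 0.42, limma adjusted p = 0.74, with 0.0605% of genes called). At 400 mg/kg 1,4-Dichlorobenzene Sult5a1 read 3097, 4565, 3239 and 3257, above CCO5 at 1659 to 2464 (0.85 ± 0.24, adjusted p = 0.068). Sult3a1 was scattered in 1,2-Dibromoethane mice, at 9032, 1569, 179 and 13847, against 11405 to 16363 in CCO2 (-2.59 ± 0.75, adjusted p = 0.48). The lowest of these treated arrays and the highest differed by over an order of magnitude. At 0.5 ppm Naphthalene Sult3a1 read 7553, 6643, 2136 and 943, against 5080 to 13892 in ACO5 (-1.31 ± 0.46, adjusted p = 0.078).

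Sult1a1 acts on phenols and aromatic amines and was read at 9636 to 37160 in control mice. Its differences ran from -0.45 to 0.59 over 46 groups, and the lowest adjusted p was 0.078 (limma), at 6 mg/kg 1,2,3-Trichloropropane. There the arrays read 31116, 22646, 23942 and 29962, above CCO6 at 20444, 21782, 15531, 15797 and 15857, where 0.242% of genes were called. In Malathion mice, in which 4 members were called, Sult1a1 read 31594, 26246, 19677, 14748 and 30177, on both sides of the FCO2 range of 21886 to 23288.

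Sult1b1 acts on thyroid hormones and small phenols and varied least among control mice, with a standard deviation of 0.29 (log2) within sets. It was higher over the doses of 1,4-Dichlorobenzene by less than the fold required for a call. CCO5 arrays read 896, 1272, 801, 1180 and 1194. At 400 mg/kg the arrays read 1782, 1352, 1492 and 1503 and at 500 mg/kg 1453, 1525, 1490 and 1773, all above the controls. The differences were 0.53 (limma, adjusted p = 0.041, 1.44-fold) and 0.56 (adjusted p = 0.016, 1.47-fold, where 0.803% of genes passed both criteria), and the trend was 0.50 ± 0.12 (adjusted p = 0.0059, 1.42-fold, where 1.12% did so). In Coumarin mice Sult1b1 read 1671, 1046, 1896 and 2234, above CCO2 at 891, 924, 899 and 667 (0.96 ± 0.24, 1.95-fold, adjusted p = 0.059).

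Sult1c2 belongs to the phenol sulfotransferases. It fell in 2,3-Benzofuran mice, which read 265, 190.3 and 260.1 against 737, 840 and 815 in the CornOil controls (-1.68 ± 0.29, limma adjusted p = 0.0068). It also fell in 1,5-Naphthalenediamine mice, at 163, 331 and 308 against 736, 573 and 673 (-1.30 ± 0.29, adjusted p = 0.026). In both comparisons the groups did not overlap. With the values as deposited the adjusted p of the first was 0.23. The second call was lost without treated replicate 1 or any 1 control, with differences of -1.40 to -1.003 and adjusted p-values of 0.052 to 0.075. Over the doses of Methylene Chloride the Sult1c2 trend was -0.997 ± 0.23 (adjusted p = 0.0017). Single doses were not called; at 4000 ppm the arrays read 198, 207, 180 and 131, below ACO4 at 279 to 433 (-0.84 ± 0.27, adjusted p = 0.052).

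Sult1d1 sulfates catecholamines such as dopamine in mice. In 2,3-Benzofuran mice it read 5577, 3548 and 5237, below the CornOil controls at 7401, 8439 and 8328 (-0.77 ± 0.19, limma adjusted p = 0.039). The call was lost without any 1 control or treated replicate 2 or 3, with differences of -0.85 to -0.57 and adjusted p-values of 0.064 to 0.14, and with the values as deposited (adjusted p = 1.00). At 3 ppm Naphthalene Sult1d1 read 3719, 2170, 4128 and 4040, overlapping ACO5 at 11699, 9263, 6818, 5045 and 3340 (-0.95 ± 0.29, adjusted p = 0.029, where 4.14% of genes were called). The other doses gave -0.62 at 0.5 ppm (unadjusted p = 0.037 and adjusted p = 0.22 by limma), -0.15 at 10 ppm, 0.47 at 20 ppm and 0.22 at 30 ppm, none called. The trend over doses had the other sign, 0.74 ± 0.25 (adjusted p = 0.29). On the second Sult1d1 probe set the 3 ppm difference was -0.42 (adjusted p = 0.35) and on the mean of both it was -0.69 (adjusted p = 0.11). The call was also lost without control replicate 1, 2 or 3 or treated replicate 2 (-0.94 to -0.73, adjusted p-values of 0.055 to 0.17) and with the values as deposited (adjusted p = 0.076). The RNA integrity number was 9.2 in every treated array, above 8.5 to 8.9 in the controls, and its part was not tested.

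Related compounds were compared in 2 pairs given at the same dose by the same route. 1,5-Naphthalenediamine carries an amino group on each ring of naphthalene, whereas N-(1-naphthyl)ethylenediamine carries a short diamine chain on 1 ring. At 2000 ppm in feed, 0.923% of genes differed between them. Sult1e1 was lower with 1,5-Naphthalenediamine (12.0, 31.2 and 4.39, against 144, 155 and 148), by -2.41 ± 0.28 (limma, adjusted p = 0.0012). Sult1c2 was also lower (163, 331 and 308, against 968, 484.5 and 642), by -1.33 ± 0.29 (adjusted p = 0.047). Leaving out any 1 of the 6 arrays ended the Sult1c2 call, at -1.56 to -1.03 with adjusted p-values of 0.050 to 0.15. So did quantile normalisation (-1.22), the values as deposited (-2.08) and the lower pseudocount (-1.38), with adjusted p-values of 0.051 to 0.068. With the Gapdh ratio as a covariate neither difference was called (Sult1e1 -1.87, adjusted p = 0.10; Sult1c2 -0.92). Sult5a1 did not pass the test (-0.67, 95% interval -1.34 to 0.01), nor did Sult2a2 (-0.18, interval -2.37 to 2.02), Sult3a1 (0.28, -0.34 to 0.90), Sult1d1 (-0.19, -0.60 to 0.23), Sult1b1 (-0.08, -0.35 to 0.19) or Sult1a1 (0.01, -0.39 to 0.41).

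The other pair was 1,4-Dichlorobenzene, a benzene ring with chlorine at opposite corners, and Benzene, both at 100 mg/kg in corn oil but in different runs. The effect of one minus that of the other was called by limma for no member and for 0 of 18193 genes, with 1173 of them and 1 of 8 members at an unadjusted p under 0.05. Of the members Sult1c2 had the largest difference, 1.16 (95% interval 0.28 to 2.04, limma adjusted p = 0.57). It read 738, 743, 633 and 522 with 1,4-Dichlorobenzene against 384 to 584 in CCO5, and 84.7, 201, 474 and 427 with Benzene against 243 to 646 in CCO2. The interval for Sult2a2 was wide, from -2.69 to 1.80 around -0.45.

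Other genes of the pathway moved with the members in few cases. Of the 5 measured family genes outside the set, 1 was called in a group with a called member: Sult2a8, a liver bile acid sulfotransferase, fell in Malathion mice (3283 to 6175 against 17668 to 20933; -2.05 ± 0.42, limma adjusted p = 0.0013). Of 16 genes of sulfate supply and the PAPS cycle none was called by limma with Malathion or at 4000 ppm Methylene Chloride (1 and 0 at an unadjusted p under 0.05), with list medians of 0.05 against -0.03 and 0.02 for all genes. In 2,3-Benzofuran mice 2 rose, Csad (2.81) and Bpnt2 (0.73), which clears the by-product of PAPS. Bpnt2 also rose with 1,5-Naphthalenediamine (0.72). At 40 mg/kg 1,2,3-Trichloropropane 2 fell, the sulfate transporter gene Slc26a1 (-1.25) and Suox (-0.59), which makes sulfate from sulfite. At 3 ppm Naphthalene Slc26a1 rose (0.78). Of all genes, 4.37% were called with Malathion, 2.92% at 4000 ppm Methylene Chloride and 3.28% with 2,3-Benzofuran. The share was 3.4% with 1,5-Naphthalenediamine, 1.34% at 40 mg/kg 1,2,3-Trichloropropane and 4.14% at 3 ppm Naphthalene.

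Of 18 genes that regulate sulfotransferases, 2 fell with Malathion: Nr1h4 (-0.78), which encodes the bile acid receptor FXR, and the growth hormone receptor gene Ghr (-0.73), where 4.37% of all genes were called. At 4000 ppm Methylene Chloride 3 fell: Stat5b (-0.69), which carries the growth hormone signal, the estrogen receptor gene Esr1 (-0.72) and Foxa1 (-0.60), where 2.92% of genes were called. At 3000 ppm, where 3.05% were called, Esr1 (-0.73) and Foxa1 (-0.71) fell. In 3 other groups 1 of the 18 was called. Nr1i3, the gene of CAR, rose with 1,5-Naphthalenediamine (0.64, 3.4% of genes called), Ghr fell at 400 mg/kg 1,4-Dichlorobenzene (-0.74, 0.462% called), and Nr3c1, the gene of the glucocorticoid receptor, fell at 3 ppm Naphthalene (-0.83, 4.14% called). The median of the list was -0.17 with Malathion and -0.20 at 4000 ppm Methylene Chloride, against -0.03 and 0.02 for all genes.

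Several members differ between the sexes in mouse liver, so sex-biased genes were counted beside them. Of 12 female-biased genes, 3 fell at 500 ppm Methylene Chloride, 6 at 2000 ppm, 7 at 3000 ppm and 7 at 4000 ppm, and none rose. The list medians were -0.65, -0.84, -1.08 and -0.86, against 0.01 to 0.05 for all genes. Of all genes, 0.726%, 0.857%, 3.05% and 2.92% were called at these doses, in that order. At 4000 ppm the falls of female-biased genes included Cyp3a16 (-3.87), Cyp2b13 (-2.68), Slc22a26 (-2.61) and Cyp3a44 (-1.98). Of 13 male-biased genes, 3 rose at each of these 4 doses, 1 fell at 3000 ppm and 2 at 4000 ppm; at 4000 ppm Cyp4a12a (2.29) and Nat8 (2.09) rose and Serpina12 fell (-2.07). With 2,3-Benzofuran 5 female-biased genes fell, such as Hao2 (-2.68), and 5 male-biased genes rose, such as Cyp4a12a (5.54). With Malathion the female-biased list had 2 falls and no rise, and the male-biased list had 6 falls, such as Slco1a1 (-5.53) and Hsd3b5 (-4.47), and 1 rise. The share of all genes called was 3.28% with 2,3-Benzofuran and 4.37% with Malathion. In other groups with a called member, female-biased genes rose as well as fell. With N-(1-naphthyl)ethylenediamine dihydrochloride 3 of them rose, Nipal1 (1.62), Acot3 (1.45) and Fmo2 (1.32), with a list median of 0.54, and 2 male-biased genes fell. At 1200 ppm Propylene glycol mono-t-butyl ether Cyp2b13 rose (1.14). With 1,5-Naphthalenediamine Nipal1 rose (0.88) and Slc22a26 fell (-0.92). The female-biased list had 2 falls at 40 mg/kg and 1 at 60 mg/kg 1,2,3-Trichloropropane and 1 at 3 ppm Naphthalene. At 400 mg/kg 1,4-Dichlorobenzene limma called 0 of the 12, with 2 at an unadjusted p under 0.05. Of all genes, 0.693% were called with N-(1-naphthyl)ethylenediamine dihydrochloride, 0.165% at 1200 ppm of the ether and 3.4% with 1,5-Naphthalenediamine. The share was 1.34% at 40 mg/kg and 0.401% at 60 mg/kg 1,2,3-Trichloropropane, 4.14% at 3 ppm Naphthalene and 0.462% at 400 mg/kg 1,4-Dichlorobenzene.

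Of 22 targets of NRF2, the regulator of antioxidant genes, 17 rose with Malathion, 15 with 2,3-Benzofuran and 14 with 1,5-Naphthalenediamine, and none fell. Of all genes, 4.37%, 3.28% and 3.4% were called in these groups, in that order, and 0.693% with N-(1-naphthyl)ethylenediamine dihydrochloride. With N-(1-naphthyl)ethylenediamine dihydrochloride limma called 0 of the 22, and 5 had an unadjusted p under 0.05. Of 17 targets of CAR and PXR, 11 rose with Malathion and 2 at 1200 ppm Propylene glycol mono-t-butyl ether, in the groups in which Sult2a2 rose. In the groups in which Sult2a2 fell, 5 rose with 2,3-Benzofuran, 4 at 400 mg/kg 1,4-Dichlorobenzene, and 3 each at 40 and 60 mg/kg 1,2,3-Trichloropropane. Only rises are counted for this list. The share of all genes called was 0.165% at 1200 ppm of the ether and 0.462% at 400 mg/kg 1,4-Dichlorobenzene. It was 1.34% at 40 mg/kg and 0.401% at 60 mg/kg 1,2,3-Trichloropropane. Of 15 genes of steroid and thyroid hormone handling, 2 rose and 3 fell at 4000 ppm Methylene Chloride, and 1 fell at 3000 ppm. Of this list 2 fell at 60 mg/kg 1,2,3-Trichloropropane, 1 rose and 1 fell with 1,5-Naphthalenediamine, and 1 fell with Malathion. Over the Methylene Chloride doses 2.92% of all genes were called at 4000 ppm, 3.05% at 3000 ppm, 0.857% at 2000 ppm and 0.726% at 500 ppm. The iodothyronine deiodinase gene Dio1 fell in 4 of the 5 groups in which Sult5a1 fell, with differences of -1.48 at 4000 ppm and -0.97 at 3000 ppm Methylene Chloride, -1.33 at 60 mg/kg 1,2,3-Trichloropropane and -1.41 with 1,5-Naphthalenediamine. It also fell at 500 and 2000 ppm Methylene Chloride (-0.81 and -0.85), where Sult5a1 was not called. The rises were of Hsd17b13 (0.77) and Akr1d1 (0.95) at 4000 ppm Methylene Chloride and of Hsd17b6 (0.65) with 1,5-Naphthalenediamine, and the fall with Malathion was of Cyp7b1 (-1.39). The list medians in these 5 groups lay between -0.09 and 0.14, against -0.12 to 0.05 for all genes.

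Markers of other tissues and cell types also differed in some of these groups, and their part in the member differences was not tested. The summed signal of 8 measured pancreas markers was 1707 to 2336 in Malathion mice against 4227 to 4946, 1254 to 1559 in 2,3-Benzofuran mice against 3944 to 4859, and 778 to 1563 in 1,5-Naphthalenediamine mice against 3896 to 5368. At 4000 ppm Methylene Chloride it was 3290 to 5073 against 5646 to 7356. In each of these groups 1 of the 8 was called lower, and in Malathion mice 1 was higher. Of 8 endothelial markers 2 were lower with 1,5-Naphthalenediamine (sum 7614 to 9519 against 11423 to 13504), and 1 at 3000 ppm Methylene Chloride (8904 to 9619 against 11484 to 13531). Of 8 intestine and kidney markers, tissues rich in several members, 1 was lower with 2,3-Benzofuran (3740 to 4238 against 6064 to 6401). Of 2 measured erythroid markers 1 was higher at 500, 2000 and 3000 ppm Methylene Chloride. Hepatocyte markers were higher in sum at 3 ppm Naphthalene (407351 to 471512 against 298050 to 368408), with 1 of 8 called. Of all genes, 4.37% were called with Malathion, 3.28% with 2,3-Benzofuran, 3.4% with 1,5-Naphthalenediamine and 4.14% at 3 ppm Naphthalene. With Methylene Chloride the share was 0.726% at 500 ppm, 0.857% at 2000 ppm, 3.05% at 3000 ppm and 2.92% at 4000 ppm.

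Among the 59 control mice, members also varied together. Deviations from the mean of each control set were taken, so that no exposure and no difference between sets entered, and the 28 pairs of members were tested by permutation within sets (100000 resamples, two-sided). For 8 pairs both Pearson's r and Spearman's rho passed after Benjamini-Hochberg adjustment. Pairs of genes outside the members were not tested, so how common such relations are among all genes is not known. Sult1a1, Sult1c2 and Sult1d1 went together most closely. The correlation of Sult1a1 with Sult1d1 was r = 0.75 (rho 0.70), that of Sult1c2 with Sult1d1 r = 0.74 (rho 0.73), and that of Sult1a1 with Sult1c2 r = 0.74 (rho 0.70). Each had a permutation p of 1e-05, the smallest these resamples can give, and an adjusted p of 9.3e-05. Without the 2 mice farthest from the median, r was 0.68, 0.75 and 0.66. Within run A the 3 correlations were 0.83, 0.57 and 0.55, within run B 0.78, 0.87 and 0.94, within run C 1.00, 0.97 and 0.96 over 6 mice, and within run D 0.71, 0.81 and 0.72.

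Weaker relations among the control mice linked Sult1b1 with Sult1c2 (r = 0.55, rho 0.49, r = 0.42 without 2 mice), Sult2a2 with Sult1d1 (0.48, 0.39, 0.39), Sult2a2 with Sult1b1 (0.48, 0.37, 0.35) and Sult1b1 with Sult1d1 (0.42, 0.42, 0.34). Their permutation p-values adjusted over 28 pairs were 0.013 for the first and 0.017 for the others by r. Sult5a1 ran against Sult1d1 (r = -0.50, rho -0.39, adjusted permutation p = 0.013 by r and 0.035 by rho, r = -0.38 without 2 mice). Within runs A to D that correlation was -0.11, -0.75, -0.47 and -0.56. The links of Sult1b1 with Sult1d1 and of Sult2a2 with Sult1d1 were 0.04 and 0.18 within run A. Sult1b1, Sult1d1 and Sult1e1 lie beside each other on chromosome 5, and no pair with Sult1e1 passed. The median Sult1e1 signal in control mice was 8.27, below the constant added to every signal. These pairs therefore cannot decide whether Sult1e1 varies with its neighbours. All arrays share the scaling to a common mean, and its part in these correlations was not tested.

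**Figure D5:**
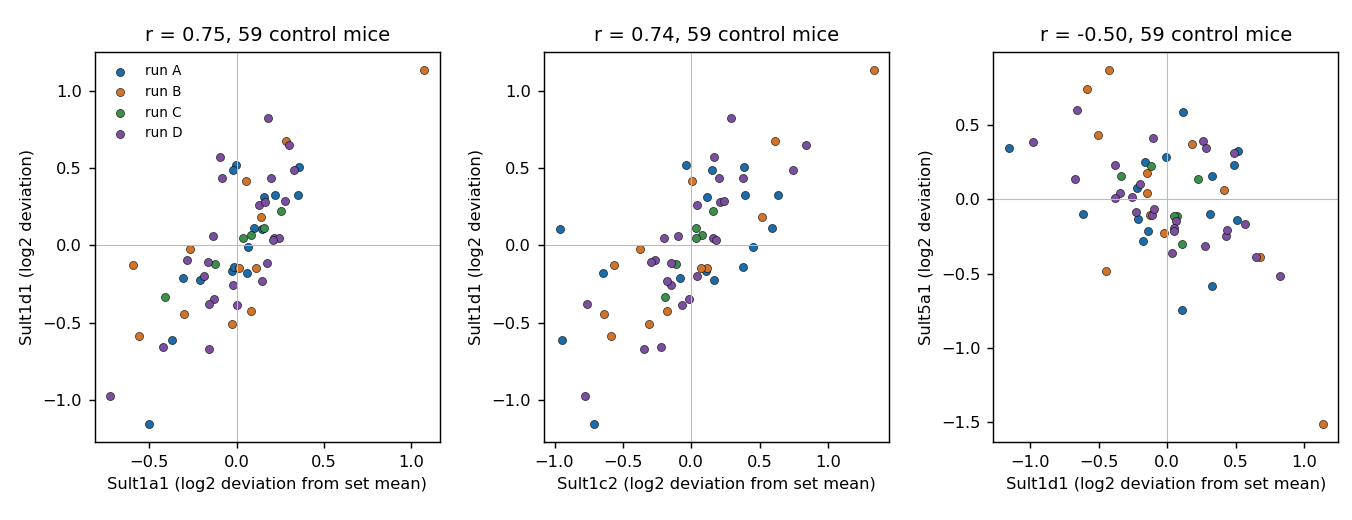
Each point is 1 of 59 control mice, coloured by run, and both axes are log2 deviations from the mean of the mouse's control set. Sult1a1 and Sult1c2 rise with Sult1d1 (r = 0.75 and 0.74), and Sult5a1 falls with it (r = -0.50).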

How the data were processed

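The authors deposited 1 linear intensity per probe set, and the submitters' processing notes list GCOS 1.0 alone; its settings are not given in the sources used here. After trimming 2% at both ends, 240 arrays averaged 500. The other 2, vanadium pentoxide replicate 4 (148.44) and 1,5-naphthalenediamine replicate 2 (84.53), were multiplied by 1 factor each (3.37 and 5.91) to reach it. Of 45101 probe sets, 64 were controls, 34945 had 1 gene symbol, and 10092 had none or several and were not named.

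Values were taken as log2 of signal plus 17.3, a pseudocount set at the arrays' median 20th percentile. limma 3.58.1 (R 4.3.3) was run on each run's arrays together, 1 mean for a group, with the 2 run codes of run A as a block, followed by eBayes. The pairing of treated groups with control sets was inferred from run, vehicle and animal numbers, since the labels do not state it. Trends were linear contrasts with the control and doses as equally spaced ranks. In all there were 59 comparisons. No signal filter was used. The method was tested on simulated data.

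The members, the 19 gene lists (244 genes, 198 measured) and the tests were chosen with earlier results of these data known. The text names every member, up to 4 called genes of a list with the lowest adjusted p, and for each member the 3 genes most like it. Of the 8 members, 7 matched the RefSeq promoter table. Other software was numpy 2.4.6, pandas 2.3.3, scipy 1.17.1 and matplotlib 3.10.9 under Python 3.11.15.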

Additional observations from a re-analysis of the deposited data

Results flagged for a closer look

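Among 53 sets of 4 or 5 arrays behind the values above, 5 held 1 array far from the rest, where chance gives about 1 in 20. Sult1b1 read 667 in CCO2 replicate 4, below 891 to 924 in the rest of the set. Sult1d1 read 2170 in replicate 2 of 3 ppm Naphthalene, against 3719 to 4128. Sult1e1 read 14.1 in ACO3 replicate 3, against 3.50 to 6.06, all of them low signals. Sult5a1 read 4565 in replicate 2 of 400 mg/kg 1,4-Dichlorobenzene, against 3097 to 3257, and 4640 in ACO4 replicate 3, against 2559 to 2872.

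The differences between 1,5-Naphthalenediamine and N-(1-naphthyl)ethylenediamine dihydrochloride were tested directly with limma and passed for Sult1e1 (-2.41, adjusted p = 0.0012) and Sult1c2 (-1.33, adjusted p = 0.047).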

How the results depend on the processing

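Of 31 calls of a member followed over the alternatives, none reversed. 20 were kept in every alternative other than fitting the 2 groups alone, and 20 were kept without each array in turn. Values as deposited lost 9 calls. There the treated-group calls were 1 for Sult1e1, 0 for Sult1d1 and 3 for Sult5a1, and 1 between related compounds. Apart from Sult1c2 between related compounds, the lost calls compared groups without a rescaled array and kept the same difference. A rescaled array of the run entered their fit only through the shared spread. Fitting only the 2 groups compared kept 10 of 22, with 1 call each for Sult1e1, Sult2a2 and Sult1c2, 0 for Sult1d1 and 2 for Sult5a1. Leaving out dim genes lost none of the calls it could fit and gave 1 call for Sult1e1, Sult1a1 and Sult1b1 each, 4 for Sult1c2 and 9 for Sult5a1, and 1 between related compounds. Quantile normalisation gave 2 calls for Sult1b1 and 1 between related compounds, the lower pseudocount (4.33) 1 between related compounds, and the higher (69.2) 1 for Sult1b1. Pooled control sets gave 2 for Sult1b1 and 6 for Sult1c2. The Gapdh ratio as a covariate gave 1 for Sult1e1 and 0 between related compounds. The other Sult1d1 probe set and the mean of both each gave 1 for Sult1d1. The cause was not tested.

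Without 1 array the calls ranged from 0 to 1 for Sult1a1, 0 to 2 for Sult1b1, 1 to 4 for Sult1c2, 1 to 2 for Sult1d1, 5 to 7 for Sult2a2 and 4 to 7 for Sult5a1, stayed at 2 for Sult1e1 and 5 for Sult3a1, and were 6 to 8 for trends, 1 for related compounds and 0 between control sets. The 8 correlated pairs stayed 8 under quantile normalisation and both pseudocounts. No paired analysis was possible because the replicate numbers name single mice of a group and are not shared between groups by the labels.

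Group sizes of 3 to 5 arrays limit the precision. Sult1e1 signals in control mice lie near the pseudocount: its difference with N-(1-naphthyl)ethylenediamine dihydrochloride was 2.69 with the lower and 1.27 with the higher pseudocount.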

Other observations

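For each member, the 3 genes outside the family whose 46 differences were most like its own are given with Pearson's r. The 46 values share control sets and runs, so r is a description. Near Sult5a1 were Dio1 (0.75), C1ra (0.74) and Serpina12 (0.72), and near Sult1a1 were Retreg1 (0.82), Acsm3 (0.80) and Slc7a2 (0.78). Near Sult1d1 were Agmo (0.78), Hnmt (0.76) and Rnf214 (0.76). Near Sult3a1 were Sugct (0.79), Slc22a26 (0.74) and Mup10 (0.74), with Spearman's rho of 0.32, 0.35 and 0.59. Near Sult1c2 were Hao2 (0.67), a peroxisomal hydroxyacid oxidase, Atp6v0d2 (0.65) and BC048507 (0.65), and near Sult2a2 were Dysf (0.61), Ercc1 (0.60) and again Hao2 (0.60). Near Sult1b1 were Nudt16 (0.72), Csrp3 (0.70) and Cyp2c54 (0.69). Near Sult1e1 were Lrtm2 (0.73), Nebl (0.71) and Scd2 (0.69), with Spearman's rho of 0.39, 0.34 and 0.15.

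Some genes of sulfatases and Golgi tyrosine sulfotransferases, a list apart from the cytosolic family, were called in groups with a called member. Of all genes, 4.37% were called with Malathion, 3.05% at 3000 ppm and 2.92% at 4000 ppm Methylene Chloride. Arylsulfatase A (Arsa), which removes sulfate from lipids, fell with Malathion (-0.71) and rose at 3000 and 4000 ppm Methylene Chloride (0.84 and 0.81). Iduronate sulfatase (Ids) fell at 4000 ppm (-0.79), as did the Golgi tyrosine sulfotransferase gene Tpst1 (-0.60).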
